A study of Sus scrofa with 2 samples.

Results

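The genes described here are the contractile genes of smooth muscle: *ACTA2*, *ACTG2*, *MYH11*, *MYL9*, *TPM1*, *TPM2*, *TAGLN*, *CNN1*, *CALD1* and *AIF1L*. They are 10 of the 22342 genes in the deposited gene list, taken by name. *MYH11* and *ACTG2* stand in that list under their Ensembl identifiers, ENSSSCG00000000146 and ENSSSCG00000008294, and were named from a reference table, and the other 8 carry their symbol. The genes, and the comparison of cells by the UMIs (unique molecular identifiers) of *CEMIP* and *CCDC80*, were chosen by the measured levels of these genes in these same cells. Their levels are therefore given as a description, without a test.

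Somatic cells of 2 antral follicles, named AF75 and AF76, were profiled with droplet single-cell RNA sequencing of transcript 3' ends (10x Genomics). The labels call them follicle 1 and follicle 2, and the AF names reach them through the names of the deposited data. Both follicles were over 7 mm in diameter and came from 1 Landrace × Yorkshire pig of 210 days, which the study treated with pregnant mare serum gonadotropin to make follicles grow. Healthy follicles were punctured and the granulosa cells in the flushed fluid were used. Each follicle gave 1 library, so there is no replicate follicle, and a difference between the follicles and one between the libraries cannot be told apart. The intervals below cover counting error at 95% and not the spread that further follicles would show.

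In smooth muscle, thick filaments of the myosin heavy chain MYH11 and its light chains pull on thin filaments of the actins ACTA2 and ACTG2, with tropomyosin lying along the actin. Calcium acts through calmodulin and myosin light chain kinase, while calponin, caldesmon and transgelin bind actin and tune or brace the filaments. In the ovary these genes are known from the muscle layer of vessels and from the outer theca of the follicle wall, and many contractile genes carry CArG boxes, the element bound by serum response factor. Granulosa cells make a non-muscle cytoskeleton with related actins, myosins and tropomyosins.

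The 250 bases before the annotated start were read from the RefSeq pig genome, Sscrofa11.1, for 9 of the 10 genes. An exact CArG box, CCWWWWWWGG with W for A or T, has the same pattern on both strands. It was found in the window of 1 of these 9 genes, *MYL9*, and in 1.31% of the windows of 19531 protein-coding genes. The shorter MCAT motif, CATTCC on either strand, lay in the window of *ACTA2* alone among the 9 genes and in 10.3% of all windows. The CArG box was searched as an exact match. Boxes with a base changed were not searched, so a window without a match may hold such a box. For example, the window of *ACTA2* holds ccctatatgg and ccttgtttgg and that of *ACTG2* gcttataagg, each 1 base off the pattern. A match describes the letters in the window and not a bound site, and windows of other lengths or other starts were not searched. The window with an exact box follows, then those of *MYH11*, *ACTA2*, *AIF1L* and *ACTG2*. *MYH11*, *ACTA2* and *AIF1L* were 10-fold or more higher in the cell class described next, and *ACTG2* was lower. The windows run 5' to 3' on the strand of the gene, with the exact CArG box in capitals. They come from chr17:39787915-39788164 (plus strand), chr3:7002417-7002666 (plus strand), chr14:100886733-100886982 (minus strand), chr1:271075126-271075375 (plus strand) and chr3:69121543-69121792 (minus strand).
MYL9: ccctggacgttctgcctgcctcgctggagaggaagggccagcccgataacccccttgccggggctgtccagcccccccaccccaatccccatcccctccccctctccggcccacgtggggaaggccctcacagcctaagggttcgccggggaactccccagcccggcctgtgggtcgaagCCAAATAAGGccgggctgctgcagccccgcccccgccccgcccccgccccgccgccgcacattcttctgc
MYH11: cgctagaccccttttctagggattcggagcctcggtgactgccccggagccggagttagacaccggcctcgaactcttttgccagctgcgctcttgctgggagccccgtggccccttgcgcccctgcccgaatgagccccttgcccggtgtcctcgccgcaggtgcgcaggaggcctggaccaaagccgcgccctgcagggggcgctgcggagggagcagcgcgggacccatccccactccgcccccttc
ACTA2: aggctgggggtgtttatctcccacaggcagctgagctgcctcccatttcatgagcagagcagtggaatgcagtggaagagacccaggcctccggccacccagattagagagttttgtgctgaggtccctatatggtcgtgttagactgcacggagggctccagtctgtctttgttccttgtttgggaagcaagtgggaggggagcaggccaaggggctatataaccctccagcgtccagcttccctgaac
AIF1L: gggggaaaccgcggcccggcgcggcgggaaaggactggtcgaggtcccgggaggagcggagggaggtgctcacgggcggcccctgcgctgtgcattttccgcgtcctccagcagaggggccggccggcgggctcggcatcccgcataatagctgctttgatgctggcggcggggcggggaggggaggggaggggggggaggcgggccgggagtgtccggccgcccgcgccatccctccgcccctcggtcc
ACTG2: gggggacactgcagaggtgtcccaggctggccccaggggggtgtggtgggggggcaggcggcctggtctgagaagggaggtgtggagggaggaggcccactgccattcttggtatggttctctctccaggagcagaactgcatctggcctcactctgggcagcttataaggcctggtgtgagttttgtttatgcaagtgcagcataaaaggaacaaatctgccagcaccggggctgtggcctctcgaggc

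In *MYL9* the box began 70 bases before the start. The MCAT motif of *ACTA2* began 187 bases before its start.

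Barcodes with 2000 to 5000 detected genes and under 7% of UMIs from 13 mitochondrial genes were taken as cells, 9362 of 14289 in AF75 and 7843 of 15548 in AF76. They held 111226504 and 108920601 UMIs, with 4148 to 32340 per cell in AF75 and 3487 to 32958 in AF76. In AF76, 434 cells (5.53%, 5.04–6.06%) had 5 or more UMIs of *CEMIP* and *CCDC80* summed, 885 had 1 to 4 and 6524 had 0. AF75 had 0 cells with 5 or more, which allows a share of up to 0.0320% by 3 counts and 0.0394% by the Clopper-Pearson limit, 82 with 1 to 4 and 9280 with 0. The AF76 cells with 5 or more were shallow, at a median of 6912 UMIs against 14144.5 in the cells with 0, so shares of cells with a UMI were also taken after thinning each cell to 5000 UMIs. Thinning left out 35 cells of that class and 40 of the class with 0. The libraries shared 56 barcodes, 18 of them within the limits in both, and none of these 18 belonged to the class with 5 or more, though 1 of the 56 was among the 434 cells of AF76 while outside the limits in AF75. UMIs tag the 3' end of a transcript and are not divided by its length, so each gene is compared between groups of cells and not with the other genes. Levels are in CPM, the UMIs of a gene per 1000000 UMIs summed over a class.

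**Figure D1:**
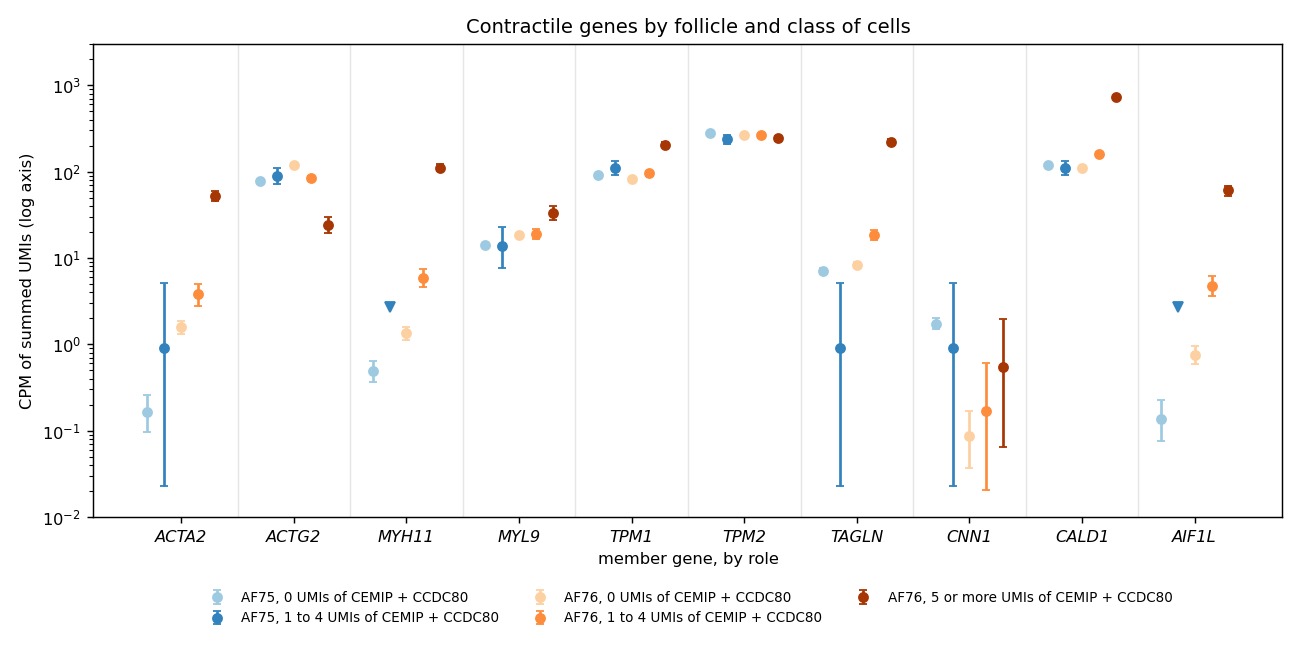
Level of each contractile gene in CPM (log axis), its UMIs per 1000000 UMIs of the class, in the classes of cells set by the UMIs of *CEMIP* and *CCDC80* in AF75 and AF76. Points are CPM of UMIs summed over the class, bars are exact Poisson 95% intervals, and triangles mark the level that 3 counts would give where 0 UMIs were counted. *ACTA2*, *MYH11*, *TAGLN*, *CALD1* and *AIF1L* stood highest in the AF76 cells with 5 or more, *TPM2* was level across classes and *ACTG2* was lowest there.

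*ACTA2* (chr14:100868145-100886732), the alpha actin of vascular smooth muscle, was scarce in AF75, at 0.163 CPM (0.0969–0.258) in the cells with 0, from 18 UMIs in 9280 cells. In AF76 it stood at 1.58 CPM (1.33–1.85) in the cells with 0, 3.77 (2.75–5.05) in those with 1 to 4 and 52.4 (45.3–60.3) in those with 5 or more. The ratio of the last class to the first was 33.2 (26.7–41.5). Few cells carried it. Of the 434 cells, 35 (8.06%) had a UMI, and in thinned cells the share was 6.52% against 0.540% in the class with 0. A single cell, 1 of the 35, held 82 of the 194 UMIs. Another single cell held 54 of the 147 UMIs of the class with 0, and with the cell of most UMIs left out of each class the levels were 30.3 and 0.997 CPM. On the log2 scale the ratio was 5.05, and 3.36 when *CEMIP* alone set the classes.

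*ACTG2* (chr3:69097366-69121542), the gamma actin of visceral smooth muscle, ran the other way. It was at 77.1 CPM (75.4–78.7) in the AF75 cells with 0 and 120.3 (118–123) in those of AF76, against 84.3 (79.2–89.7) in the AF76 cells with 1 to 4 and 24.3 (19.5–29.9) in those with 5 or more. The ratio of 5 or more to 0 in AF76 was 0.202 (0.162–0.249). A UMI was found in 7.77% of thinned cells of the first class and 13.3% of the second. Its window, printed above, held no exact match of either motif. The actins are alike in their coding sequence, and how reads that match several actin genes were counted was not tested, nor was the same question for the tropomyosins.

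*MYH11* (chr3:7002667-7143093), the heavy chain of smooth muscle myosin and a defining gene of that cell type, was scarce outside the class with 5 or more. It was at 0.490 CPM (0.368–0.640) in the AF75 cells with 0, 1.34 (1.11–1.60) in those of AF76 and 5.87 (4.58–7.42) in the AF76 cells with 1 to 4. In the AF76 cells with 5 or more it reached 111 CPM (100.2–122), a ratio of 82.6 (67.5–101.7). These 410 UMIs came from 146 cells (33.6%), and no cell held more than 19 of them. In cells thinned to 5000 UMIs a *MYH11* UMI was found in 27.8% of the class with 5 or more, 0.663% of the class with 0 and 0.140% of AF75 cells with 0. With *CCDC80* alone setting the classes the log2 ratio was 5.22 in place of 6.37.

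*MYL9* (chr17:39788165-39795240), a regulatory light chain of myosin that smooth muscle and other contractile cells use, differed by less than 2-fold between the AF76 classes. It was at 14.2 CPM (13.5–15.0) in the AF75 cells with 0 and at 18.4 (17.5–19.3) in those of AF76, 18.95 (16.6–21.6) in those with 1 to 4 and 33.2 (27.6–39.6) in those with 5 or more. The ratio of the last class to the cells with 0 in AF76 was 1.81 (1.49–2.17). The share of cells with a UMI was 20.7% in the class with 5 or more and 20.8% in the class with 0, and 14.5% against 8.24% after thinning.

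*TPM1* (chr1:108986981-109016090) and *TPM2* (chr1:236402249-236410390) encode tropomyosins, of which muscle and non-muscle cells make different splice forms that 3' counts do not separate. *TPM1* was at 81.2 CPM (79.3–83.0) in the AF76 cells with 0 and 206 (191–221) in those with 5 or more, a ratio of 2.53 (2.35–2.73). *TPM2* was at 268 CPM (265–272) and 242 (227–259) in the same classes, a ratio of 0.903 (0.844–0.965), the ratio nearest to 1 among the genes compared. In the AF75 cells with 0 they stood at 92.3 CPM (90.5–94.1) and 278 CPM (275–281). A *TPM1* UMI was found in 56.9% of the AF75 cells with 0, 58.8% of those of AF76 and 74.0% of the cells with 5 or more, and a *TPM2* UMI in 66.4%, 66.5% and 60.8%.

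*TAGLN* (chr9:44561756-44567385), transgelin or SM22 alpha, an actin-binding protein of the calponin family, was at 7.06 CPM (6.57–7.57) in the AF75 cells with 0 and at 8.35 (7.77–8.96) in those of AF76. It was at 18.3 CPM (15.9–20.9) in the AF76 cells with 1 to 4 and at 222 (208–238) in those with 5 or more, a ratio of 26.6 (24.1–29.4) to the cells with 0. After thinning, 39.6% of the cells with 5 or more had a UMI, 3.24% of the cells with 0 and 2.06% of the AF75 cells with 0. The low level in the cells with 0 was itself uneven, as 1% of these cells held 56.0% of the *TAGLN* UMIs in AF75 and 43.6% in AF76.

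*CNN1* (chr2:70183370-70190756), calponin 1, a marker of differentiated smooth muscle, did not follow *TAGLN*. It had 2 UMIs in the AF76 cells with 5 or more and 8 in those with 0, a ratio of 6.30 (0.651–31.5), too few to compare. Most of its UMIs lay in AF75, 190 in the cells with 0 (1.73 CPM, 1.49–1.99), and 2 cells held 24 and 23 of them. The ratio of AF76 to AF75 in the cells with 0 was 0.0497 (0.0212–0.0999).

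*CALD1* (chr18:14267955-14486641), caldesmon, an actin-binding brake on myosin made in a smooth muscle and a non-muscle form, had a UMI in 58.9% of the AF76 cells with 0 and 94.0% of those with 5 or more. It was at 118 CPM (116–120) in the AF75 cells with 0, 109.7 (108–112) in those of AF76, 160 (153–167) in the AF76 cells with 1 to 4 and 725 (698–753) in those with 5 or more. The ratio of the last to the cells with 0 in AF76 was 6.61 (6.33–6.898), and after thinning 89.7% and 34.9% of the cells had a UMI.

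*AIF1L* (chr1:271075376-271099984), an actin-bundling protein related to the macrophage gene *AIF1*, was also scarce outside the class. It was at 0.136 CPM (0.0762–0.225) in the AF75 cells with 0, 0.7503 (0.585–0.948) in those of AF76 and 4.78 (3.62–6.19) in the AF76 cells with 1 to 4. In those with 5 or more it was at 60.5 CPM (52.8–68.9), a ratio of 80.6 (61.4–107), from 224 UMIs spread over 139 cells with at most 4 each. After thinning, 24.6% of these cells and 0.447% of the cells with 0 had a UMI. The log2 ratio was 4.91 in place of 6.33 when *CCDC80* alone set the classes.

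Of the 9 genes with at least 50 UMIs in the 2 AF76 classes together, 6 were 2-fold or more higher in the cells with 5 or more, 1 (*ACTG2*) was lower and 2 (*MYL9* and *TPM2*) lay between. Among all 11283 genes compared in the same way, 20.6% were 2-fold or more higher and 7.24% lower. *ACTA2*, *MYH11*, *TAGLN* and *AIF1L* were 10-fold or more higher, as were 2.12% of all genes. The median log2 ratio was 2.72 over the 9 genes and 0.33 over all genes. Set against the median of all genes, that of the 9 genes was 2.39. Since the genes were picked for this comparison, the counts describe them and nothing is read from them.

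**Figure D2:**
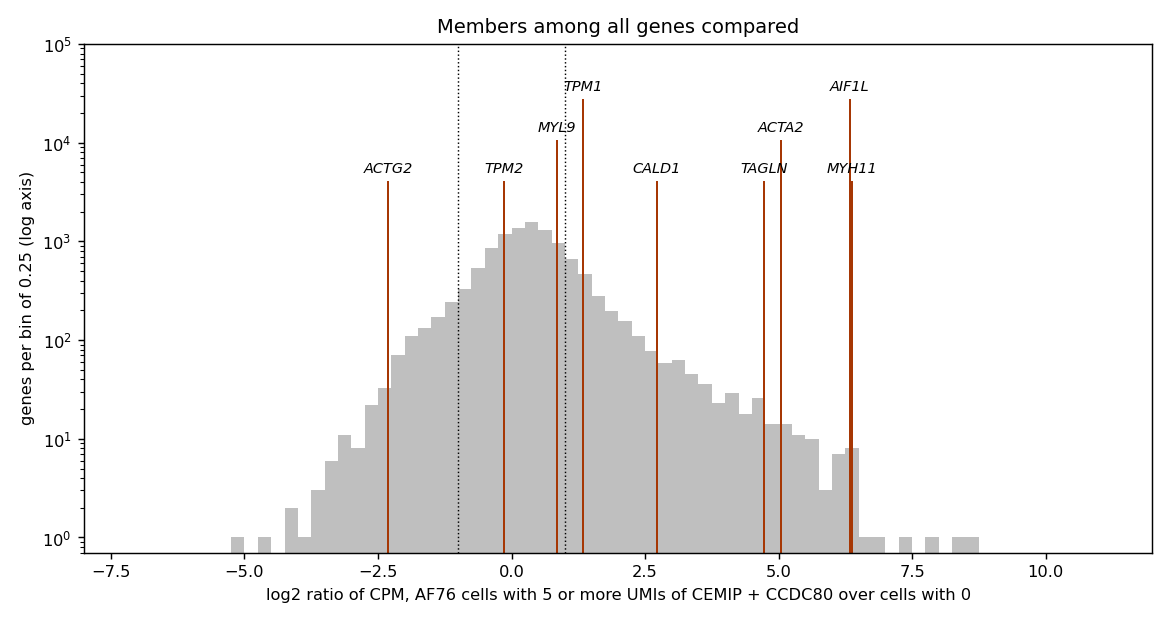
Histogram of the log2 ratio of CPM between AF76 cells with 5 or more UMIs of *CEMIP* and *CCDC80* and cells with 0, with genes per bin on a log axis and dotted lines at 2-fold. Lines mark the 9 contractile genes compared, from *ACTG2* at −2.31 to *MYH11* at 6.37. *CEMIP* and *CCDC80*, which set the classes, lie beyond the right edge.

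Levels summed over the AF76 cells with 1 to 4 UMIs lay between those of the other classes for several genes. These sums average unlike cells. Of the class, 693 cells had 1 UMI, at a median depth of 14411 UMIs and with *CALD1* at 115 CPM. Only 89 had 3 to 4 UMIs, at a median depth of 6931 UMIs and with *CALD1* at 575 CPM. The ratio to the cells with 0 was 6.37 (4.41–9.17) for *AIF1L*, 4.38 (3.22–5.92) for *MYH11*, 2.40 (1.68–3.37) for *ACTA2* and 2.19 (1.88–2.55) for *TAGLN*, and these 4 of 9 genes were 2-fold or more higher, as were 2.7% of all genes, while 0 were 2-fold or more lower, as were 0.672%. *CALD1* was at 1.46 (1.39–1.53) and *ACTG2* at 0.701 (0.656–0.748). Around the threshold of 5 UMIs, *MYH11* was at 28.6 CPM in cells with 3 to 4 UMIs and at 67.1 CPM in cells with 5 to 9. *TAGLN* was at 78.4 CPM and 160.1 CPM on the same sides, *AIF1L* at 18.7 CPM and 32.7 CPM, and *CALD1* at 575 CPM and 558 CPM.

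From 1 UMI of *CEMIP* and *CCDC80* to 50 or more, *TAGLN* went from 11.4 CPM to 249 CPM and *MYH11* from 3.32 CPM to 138 CPM. *ACTG2* went the opposite way, from 92.8 CPM to 6.003 CPM, the latter from 2 UMIs in 34 cells. *CALD1* and *TPM1* had most of their step by 3 to 4 UMIs, where *CALD1* was found in 77.8% of thinned cells and *TPM1* in 58.0%. *TPM2* stayed between 44.7% and 51.9% of thinned cells in all 8 bins.

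**Figure D3:**
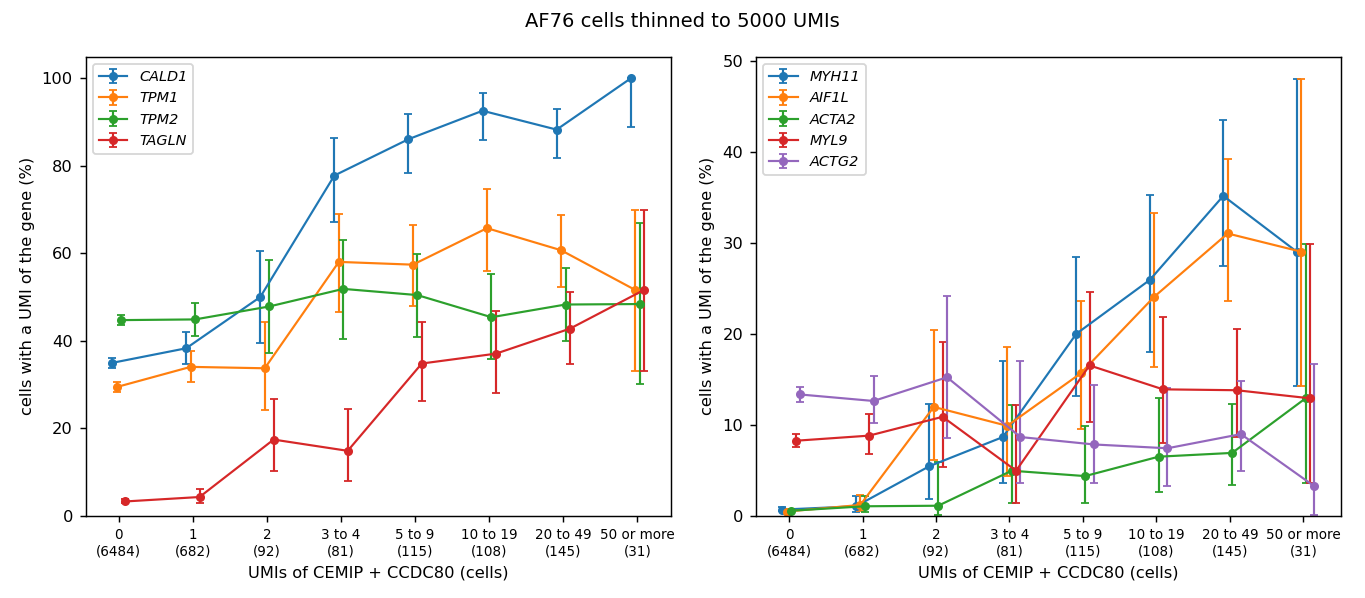
Share of AF76 cells, each thinned to 5000 UMIs, with a UMI of the gene, by UMIs of *CEMIP* and *CCDC80* before thinning, with the number of cells in parentheses and Clopper-Pearson 95% intervals as bars. *CALD1* went from 34.9% to 100% and *TAGLN* from 3.24% to 51.6% of cells, while *TPM2* stayed level and *ACTG2* went from 13.3% to 3.23%.

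Within single cells, 87.3% (83.8–90.3%) of the 434 cells had 5 or more UMIs over the 10 genes, against 61.6% (58.3–64.8%) of the cells with 1 to 4, 55.6% (54.4–56.9%) of the cells with 0 and 50.7% (49.7–51.7%) of the AF75 cells with 0. After thinning the shares were 70.7%, 25.4%, 20.2% and 19.5%. Most of the UMIs in the other classes were of *TPM1*, *TPM2*, *CALD1* and *ACTG2*. For *ACTA2*, *MYH11*, *TAGLN* and *AIF1L* alone, a set chosen after their values were seen, 110 of the 434 cells (25.3%, 21.3–29.7%) had 5 or more UMIs, against 0.567% (0.400–0.781%) of the cells with 0 and 0.420% (0.299–0.574%) of the AF75 cells with 0. These 110 cells were 65.9% of all 167 such cells of AF76. At least 2 of the 4 genes were found in 37.6% of the 434 cells and in 0.552% of the AF76 cells with 0, and 31.1% of the 434 cells had none of the 4.

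The genes were also counted in pairs. Among the 434 cells, 47.9% had *TAGLN*, 33.6% *MYH11* and 20.7% *MYL9*. Of the 35 cells with *ACTA2*, 28 also had *TAGLN*, 18 had *MYH11* and 7 (20%) had *MYL9*, and of the 146 cells with *MYH11*, 100 also had *TAGLN*. Conversely, 13.5% of the 208 cells with *TAGLN* had *ACTA2* and 48.1% had *MYH11*. Across the 434 cells, Pearson's correlation of log levels was highest for 3 pairs. It was 0.44 for *MYH11* and *TAGLN*, 0.29 for *TAGLN* and *CALD1* and 0.28 for *MYH11* and *CALD1*. All other pairs were at 0.22 or below and, in counts this sparse, are not read further. After thinning to 5000 UMIs, with 399 cells left, these pairs were at 0.33, 0.24 and 0.26 in the same order. All these values are correlations across cells of 1 library that share its depth, and the cells are not replicates.

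**Figure D4:**
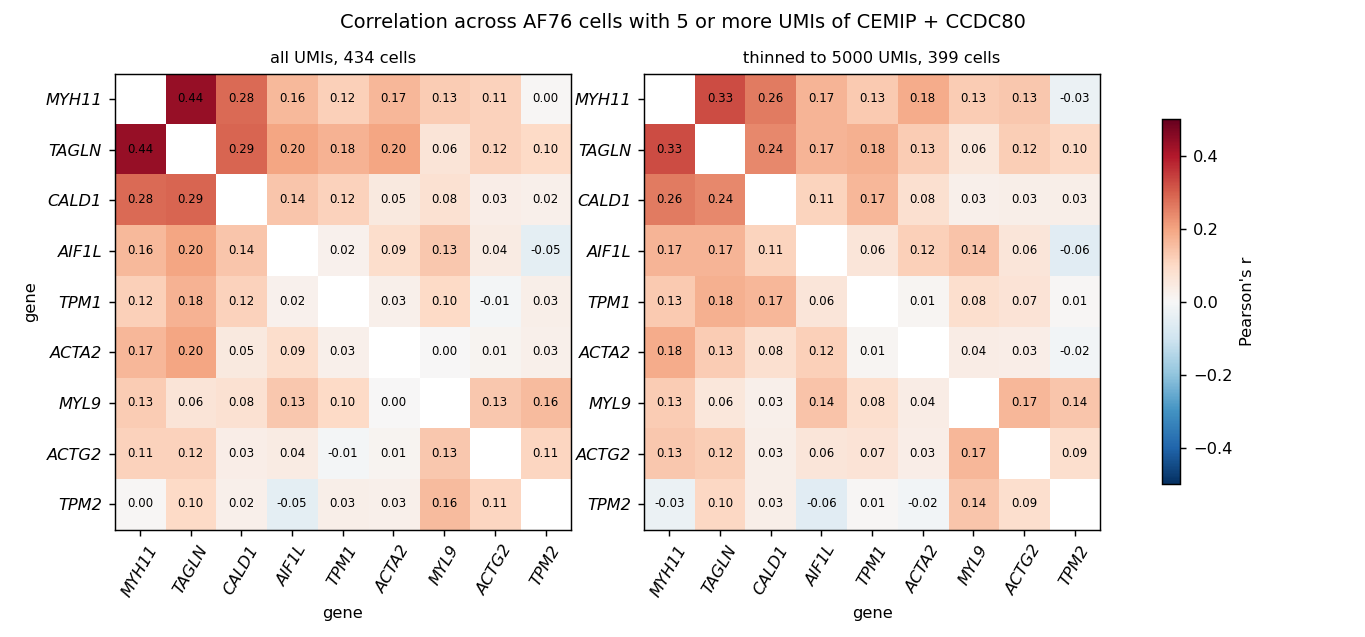
Pearson's correlation of log1p UMIs per 10000 between pairs of contractile genes across AF76 cells with 5 or more UMIs of *CEMIP* and *CCDC80*, with all UMIs (434 cells) and thinned to 5000 UMIs (399 cells). *MYH11* with *TAGLN* was highest, at 0.44 and 0.33. *CNN1* is left out, as it had 2 UMIs.

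Correlation with the mean log level of the 10 genes was taken for 3282 genes with at least 200 UMIs in the 434 cells. For a gene of the 10, the mean was that of the others, so its rank rests on a different mean. *TAGLN*, *MYH11* and *CALD1* ranked 1, 2 and 5. The nearest genes outside the 10 were the following. *DSTN*, destrin, which severs actin filaments, had a correlation of 0.39, *ACTB*, a non-muscle actin, 0.38, and *TMSB4X*, thymosin beta 4, which holds actin monomers, 0.30. They were followed by ENSSSCG00000012699 at 0.28, *CITED2* at 0.27, *NCOA4* at 0.26, *ACTG1*, the other non-muscle actin, at 0.26 and *MYL6*, a myosin light chain, at 0.26. *ACTB* was at 2631 CPM in the class with 5 or more and 1682 in the class with 0, and *ACTG1* at 4909 and 4564. After thinning the 8 correlations lay between 0.21 and 0.33.

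Other genes of the contractile system were read in the same AF76 classes, where 20.6% of all genes were 2-fold or more higher, 7.24% lower, and the median log2 ratio was 0.33. Of 20 further smooth muscle genes 12 could be compared, of which 4 were 2-fold or more higher and 0 lower, with a median log2 ratio of 0.55. They were *CSRP1*, a LIM protein of actin bundles, at a ratio of 9.98 (8.58–11.6), *SYNPO2* at 8.29 (5.16–12.9), *TGFB1I1*, a focal adhesion protein also called Hic-5, at 7.66 (6.76–8.66) and *VCL*, vinculin, at 3.53 (3.29–3.79). *ACTN1* and *SMTN*, smoothelin, were lowest, at 0.803 (0.685–0.937) and 1.17 (0.769–1.71). *LMOD1* had 0 UMIs in the class with 5 or more, and *PLN* and *KCNMB1* had 0 in both. Of 19 genes that control contraction 17 were compared, with 3 higher, 2 lower and a median of −0.00. *EDNRA*, an endothelin receptor, was at 8.83 (6.20–12.4), *PPP1R14A* at 2.86 (1.71–4.56), *PPP1R12B*, a subunit of myosin phosphatase, at 2.49 (1.84–3.29) and *EDNRB* at 1.58 (1.16–2.12), against 0.331 (0.316–0.346) for *RGS2* and 0.481 (0.434–0.532) for *ROCK2*. *MYLK*, the light chain kinase itself, was at 26.7 CPM against 44.3 CPM.

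Of 13 non-muscle actin and myosin genes compared, 2 were higher and 0 lower, beside 20.6% and 7.24% of all genes. The median log2 ratio of all genes was 0.33. *CNN2*, a calponin of non-muscle cells, was at 5.30 (4.32–6.47) and *ACTN4* at 2.05 (1.83–2.29), followed by *CAPZB* at 1.67 (1.56–1.78) and *ACTB* at 1.56 (1.53–1.60), with *PFN1* and *MYL12A* lowest at 0.694 (0.638–0.752) and 0.745 (0.715–0.776). Among regulators and targets of serum response factor, its cofactors and YAP, 7 of 10 were higher and 0 lower, with a median log2 ratio of 1.46. *KLF4*, a transcription factor, had the largest ratio, 53.7 (32.1–92.3), from 49 and 23 UMIs, then *CCN2*, a secreted matrix protein, at 7.10 (6.58–7.65), *YAP1* at 3.83 (3.46–4.23) and *WWTR1*, which encodes TAZ, at 2.96 (2.29–3.79). *MRTFA* was at 0.590 (0.460–0.745) and *LATS2* at 0.901 (0.766–1.05). *SRF* itself was at 5.40 CPM against 2.05 CPM, from 20 and 191 UMIs. Of 10 focal adhesion genes compared, 3 were higher and 1 lower. *ITGB3*, an integrin chain, was at 48.2 (28.5–83.6), *FN1*, fibronectin, at 5.77 (2.70–11.3), from 11 and 48 UMIs, *PARVA* at 2.92 (2.43–3.49) and *FERMT2* at 1.45 (1.32–1.59), and *ITGA5* and *ITGB1* were lowest at 0.371 (0.313–0.438) and 0.704 (0.685–0.724).

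Markers of the cell types that a flushed follicle could hold were read in the same classes. Of all genes compared there, 20.6% were 2-fold or more higher and 7.24% lower. Of 7 genes that define smooth muscle, *MYH11* and *CNN1* included, the summed level was 127 CPM in the AF76 cells with 5 or more and 12.6 CPM in those with 0, and *MYH11* gave 410 of the 472 UMIs in the first. Of these genes 3 could be compared, of which 1, *MYH11*, was 2-fold or more higher. *LMOD1* had 0 UMIs in the 434 cells, *DES*, desmin, had 1 and *CNN1* 2, while *MYOCD*, myocardin, had 8 (2.16 CPM) against 6 in the class with 0 (0.0643 CPM), and *SMTN* and *SYNM* were at 7.56 and 6.21 CPM against 6.47 and 4.51 CPM. Of 7 pericyte genes 4 could be compared, with 2 higher and 0 lower. *PDGFRB* was at 16.6 (13.5–20.5) times and *NOTCH3* at 11.2 (6.72–18.3) times the class with 0, *RGS5* was at 0.664 (0.630–0.699), *MCAM* at 0.614 (0.0732–2.29), and *CSPG4*, *KCNJ8* and *ABCC9* had 0 UMIs, for summed levels of 445 and 601 CPM. The granulosa genes summed to 11437 CPM and 33854 CPM, and of 10 compared 3 were higher and 4 lower. *INHA*, the inhibin alpha chain, was at 5910 CPM in the cells with 5 or more and at 24118 CPM in those with 0, and *FSHR*, the receptor of follicle-stimulating hormone, at 28.9 CPM and 0.708 CPM. *HSD17B1* and *NR5A1* were at ratios of 2.20 (1.86–2.58) and 2.08 (1.61–2.64), *FST*, follistatin, at 1.93 (1.81–2.06) and *SERPINE2* at 0.317 (0.310–0.323), and *AMH* had 0 UMIs in both classes.

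Theca and stroma genes summed to 382 CPM in the AF76 cells with 5 or more and 539.9 CPM in those with 0. Of 9 compared 5 were higher and 2 lower, beside 20.6% and 7.24% of all genes. *LUM*, *DCN*, *FBLN1* and *COL1A1* were higher, at ratios of 47.6 (29.3–78.9), 24.3 (16.5–35.8), 10.1 (9.25–10.9) and 5.43 (3.26–8.67), *CYP17A1* and *INSL3*, genes of the steroid-making theca, lower at 0.165 (0.00414–0.931) and 0.256 (0.233–0.280), and *PDGFRA* and *DPT* had 0 UMIs. Of 3 endothelial genes compared, 1 was higher and 2 were lower. *VWF* was at 65.6 (45.8–95.5), *PECAM1* and *KDR* at 0.492 (0.244–0.887) and 0.189 (0.0388–0.556) and *CDH5* at 0 UMIs, for sums of 37.0 and 11.0 CPM. The immune genes summed to 2.16 and 6.67 CPM, and of 4 compared 0 were higher and 2 lower, with *PTPRC*, *LCP1*, *LAPTM5*, *CD163* and *CD3E* at 0 UMIs. *HBB*, haemoglobin beta of red blood cells, was at 356 CPM against 22.9 CPM (ratio 15.6, 14.6–16.7), with *ALAS2* at 0 UMIs. Of the surface epithelium genes, *LRRN4* had 0 UMIs, *KRT7* 6 and *CDH1* 2 in the cells with 5 or more. *KRT7* had 0 UMIs in the AF76 cells with 0. The genes summed to 2.16 and 0.172 CPM, from 8 and 16 UMIs, too few to compare. The part of any of these cell types, or of RNA free in the droplets, in the levels of the contractile genes was not tested, and doublets were kept in the values above.

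Summed over all cells within the limits, 4 of the 10 genes were 2-fold or more higher in AF76 than in AF75 and 1 was lower, as were 1.85% and 2.59% of 12172 genes. The ratios were 23.9 (14.3–43.2) for *AIF1L*, 20.7 (13.1–34.8) for *ACTA2*, 11.4 (8.65–15.4) for *MYH11*, 2.39 (2.20–2.603) for *TAGLN* and 0.0642 (0.0326–0.115) for *CNN1*. *MYL9*, *ACTG2*, *TPM1*, *TPM2* and *CALD1* lay between 0.940 and 1.46. In such sums more cells that carry a gene and more of its RNA in each cell cannot be told apart. The 434 cells held 224 of the 351 *AIF1L* UMIs of AF76, 410 of the 605 *MYH11* UMIs, 194 of the 386 *ACTA2* UMIs and 824 of the 1821 *TAGLN* UMIs. The log2 ratio of *MYH11*, 3.52, was 4.15 in thinned cells and 4.31 by the mean of per-cell CPM.

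In the cells with 0 UMIs of *CEMIP* and *CCDC80* the ratios of *ACTA2*, *AIF1L*, *MYH11* and *TAGLN* were nearer to 1 than over all cells, and those of *CNN1*, *ACTG2* and *TPM1* farther from it. Here 3 of the 10 genes were 2-fold or more higher in AF76, as were 0.74% of 12028 genes, and *CNN1* was lower, as were 3.06%. The ratio was 9.64 (5.89–16.7) for *ACTA2*, 5.51 (3.12–10.4) for *AIF1L*, 2.73 (1.97–3.83) for *MYH11* and 1.18 (1.07–1.31) for *TAGLN*. *ACTG2* was at 1.56 (1.52–1.61) and *MYL9* at 1.29 (1.21–1.38), while *TPM2*, *CALD1* and *TPM1* were at 0.965 (0.949–0.981), 0.932 (0.908–0.957) and 0.879 (0.853–0.906). The median log2 ratio was 0.31 over the 10 genes and −0.03 over all genes. Without the cell with the most *ACTA2* UMIs in each follicle its log2 ratio was 2.78 in place of 3.27.

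*ACTG2*, the gene lower in the class with 5 or more, was carried by a minority of the other cells at high counts. Among cells with 0, 21.0% in AF75 and 22.4% in AF76 had a UMI, yet 1% of the cells held 41.7% and 48.0% of its UMIs. The cell with the most had 131 UMIs in AF75 and 315 in AF76, 3.47% of all UMIs of that cell. It had 0 UMIs of *ACTA2*, *MYH11*, *TAGLN* and *AIF1L* in both follicles. The same held for 95.1% of the cells with 0 in AF75 and 90.7% in AF76, so it does not set that cell apart. The 135 AF76 cells with 0 of *CEMIP* and *CCDC80* and 20 or more *ACTG2* UMIs had 0 UMIs of *MYH11* and *AIF1L* and 1 of *ACTA2*, and *TAGLN* was at 5.76 CPM in them against 7.78 CPM in the 5060 cells with 0 *ACTG2* UMIs. In AF75 the 88 such cells had 15.3 CPM of *TAGLN* against 7.503 CPM, from 17 UMIs. Correlation with *ACTG2* across the cells with 0 was taken for genes with at least 200 UMIs there, 9901 in AF75 and 9562 in AF76. The highest was 0.084 over 9280 cells in AF75 and 0.082 over 6524 in AF76.

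*TPM2* differed from *ACTG2* in that most cells carried it, as 66.4% of the cells with 0 in AF75 and 66.5% in AF76 had a UMI. Its UMIs were far less concentrated in few cells than those of *ACTG2*. The cell with the most had 96 UMIs in AF75 and 143 in AF76, and 1% of the cells with 0 held 11.9% and 13.2% of its UMIs. The 274 AF75 cells with 20 or more *TPM2* UMIs had *TAGLN* at 9.96 CPM against 4.73 CPM in the 3115 cells with 0 *TPM2* UMIs, a ratio of 2.11 (1.45–3.005), and in AF76 it was 1.79 (1.32–2.41). The AF75 cells with 20 or more were deeper, at a median of 13205.5 UMIs against 10608. *CALD1* and *TPM1* were spread more evenly, as 1% of the cells held 7.76% and 8.35% of their UMIs in AF75.

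**Figure D5:**
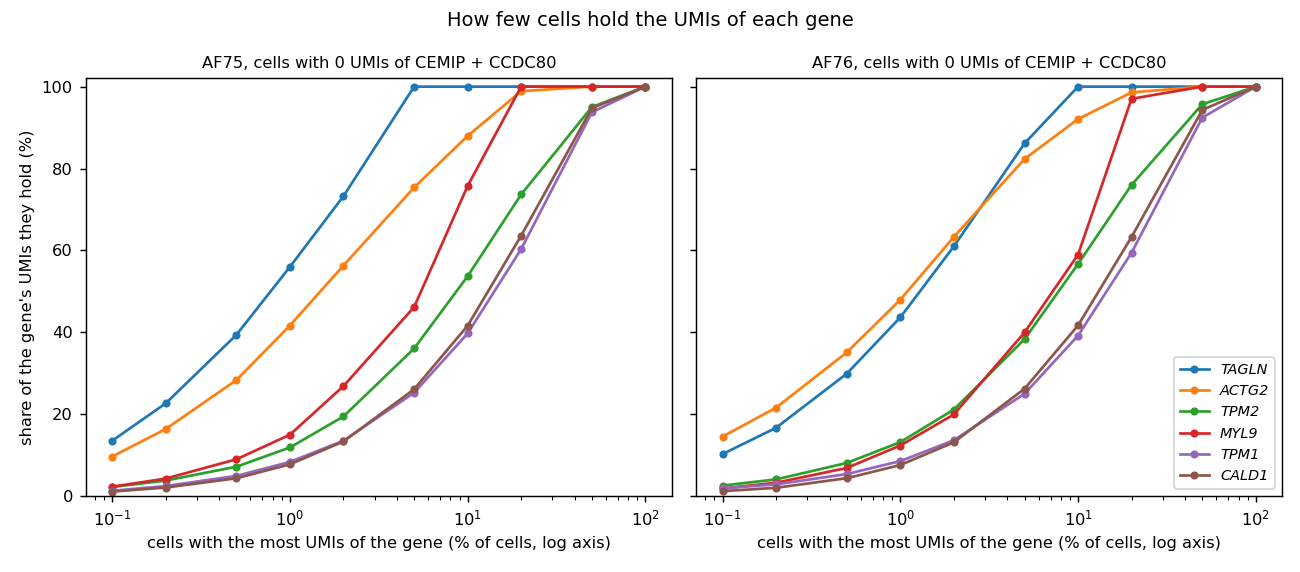
Share of the UMIs of a gene (vertical axis, %) held by the cells with the most of it (horizontal axis, % of cells, log axis), in the cells with 0 UMIs of *CEMIP* and *CCDC80* of AF75 and AF76. *TAGLN* and *ACTG2* lie far to the upper left, with 10% of the cells holding 100% and 88.0% of their UMIs in AF75, and *CALD1* and *TPM1* rise slowly, at 41.6% and 39.7%.

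Barcodes outside the limits were read for the same genes. In AF76, 168 barcodes with under 2000 genes had 5 or more UMIs of *CEMIP* and *CCDC80*, against 1 in AF75, at a median of 3181 UMIs. They had *MYH11* at 104 CPM, *TAGLN* at 242 CPM, *CALD1* at 726 CPM and *AIF1L* at 55.2 CPM, with *ACTG2* at 15.8 CPM. *ACTA2* was at 19.7 CPM there, from 10 UMIs. The 6407 AF76 barcodes with under 2000 genes and 0 UMIs of *CEMIP* and *CCDC80* had *TAGLN* at 41.6 CPM and *ACTA2* at 14.8 CPM, against 8.38 and 0.387 CPM in the 4583 such barcodes of AF75. The median depth of these barcodes was 1164 UMIs in AF76 and 1302 in AF75. At such depth a count of 0 for *CEMIP* and *CCDC80* sets cells apart less well than within the limits. The 822 AF76 barcodes with under 2000 genes and 1 to 4 UMIs had a median depth of 1124.5 UMIs. In them *TAGLN* was at 160 CPM, *CALD1* at 396 CPM, *AIF1L* at 39.9 CPM and *ACTG2* at 59.8 CPM.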

How the data were processed

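The deposited values are whole UMI counts per Ensembl gene for every barcode that the authors called with CellRanger (version 6.0.2, pig genome Sscrofa11.1); the annotation version is not given in the sources used here. Cells had 2000 to 5000 genes and under 7% mitochondrial UMIs, after the study's methods, and doublets were kept.

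UMIs were summed per class. Levels have exact Poisson intervals, shares Clopper-Pearson and ratios exact conditional ones, at 95% and for counting error only. With 1 library per follicle no test was made. Genes with at least 50 UMIs over both groups were compared and called at 2-fold, with a floor of 3 counts. The 10 genes, the lists and the classes were chosen with earlier results of these data known. The promoter window of 1 gene is not reported here. Named were the 10 genes, up to 4 highest and 2 lowest ratios per list, defining markers at 0 and the 8 nearest genes. *SRF*, *MYLK*, *DES*, *MYOCD*, *KRT7* and *CDH1* were added after their values were seen. Counts were simulated for AF76 cells with 5 or more against 0 (11283 genes). In them 97.5% of 200 genes with a true log2 ratio of 2, up or down at random, came out past 2-fold in the true direction. Of unchanged genes 3.30% came out past 2-fold. They were Poisson draws of class totals, without the clumping of UMIs in few cells. The 97.5% and the 3.30% are therefore not the rates of recovery and of false calls in these data. Alternatives changed the limits on cells, the depth, the scaling, the summary over cells, the class threshold and, by Scrublet score, doublets. Python 3.11.15, numpy 2.4.6, scipy 1.17.1, pandas 2.3.3, scanpy 1.11.5, scikit-learn 1.9.0 and matplotlib 3.10.9 were used.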

Additional observations from a re-analysis of the deposited data

Results flagged for a closer look

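*MYH11* at 104 CPM and *TAGLN* at 242 CPM were found in AF76 barcodes that the limits leave out, the 168 with under 2000 genes and 5 or more UMIs of *CEMIP* and *CCDC80*. AF75 had 1 such barcode, with 0 UMIs of either gene.

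The *TAGLN* ratio lay below 1 in AF75 and above 1 in AF76. The ratio of cells with 1 to 4 to cells with 0 was 0.129 (0.00327–0.722) in AF75, from 1 UMI in 82 cells, and 2.19 (1.88–2.55) in AF76, from 218 UMIs in 885 cells. The share of AF75 cells with a *TAGLN* UMI was 1.22% (0.0309–6.61%) and 4.25%, and 0% (0–4.399%) and 2.06% after thinning. As few cells hold most *TAGLN* UMIs, the interval of the AF75 ratio, which covers counting error, is too narrow to show a lower level. Each follicle is 1 library, and the difference was not tested.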

How the results depend on the processing

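No ratio that was 2-fold or more in either direction changed direction under any alternative. Between AF76 cells with 5 or more and 0, 6 genes stayed 2-fold or more higher in each of the alternatives run. The median log2 ratio there, 2.72, was 2.89 after the 6.9% of cells with the highest Scrublet score were removed, 2.79 with cells thinned to 5000 UMIs, 2.87 with 10 or more UMIs setting the class and 2.39 less the median of all genes. Between follicles in the cells with 0 it was 0.31, and 0.48 with 500 to 6000 genes and 0.49 with all deposited barcodes. The share of cells with 5 or more UMIs over the 10 genes, 87.3%, was 77.9% with 500 to 6000 genes, 76.4% with all barcodes and 70.7% after thinning. Of single genes, *ACTA2* moved most between the classes, from a log2 ratio of 5.05 to between 3.36 and 5.45. *TPM1* alone changed sign, between follicles over all cells, from −0.09 to 0.01 with the mean of per-cell CPM. Called ratios that moved by over 1.5 times on the linear scale included *AIF1L* (4.58 to 5.60, thinned) and *CNN1* (−3.96 to −2.995, thinned) between follicles over all cells, *MYH11* (6.37 to 5.22) and *AIF1L* (6.33 to 4.91) with *CCDC80* alone setting the classes, and *ACTA2* (3.27 to 4.03) and *AIF1L* (2.46 to 3.44) in the cells with 0 with all barcodes. The cause of these shifts was not tested. Leaving out the cell with the most UMIs of a gene was added after the data were seen. Depth limits *CNN1*, with 12 UMIs in AF76, and *ACTA2* and *AIF1L* in AF75, with 19 and 15. No paired analysis was possible because each follicle gave 1 library and no test was made.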
